A study of Mus musculus with 5 samples.

Results

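The thrombospondins Thbs1 to Thbs4, the fibulins Fbln1, Fbln2 and Fbln5, fibronectin (Fn1), tenascin-C (Tnc) and versican (Vcan) are 10 of the 54532 genes in a table of RNA sequencing of mouse neurospheres. The rows were found by gene symbol, and all 10 symbols matched exactly 1 row each. The set was chosen on the measured difference between the genotypes, because Thbs2 was higher and Fbln2 lower in the heterozygous libraries. That difference is therefore given for these genes as a description and without a p-value. Neurospheres, free-floating balls of neural stem cells and their progeny, came from hippocampus at postnatal day 0 of C57BL/6 mice and were grown with FGF-2 and EGF, each at 20 ng/ml, until day 7. The heterozygous group (hGFAPCre+, Arid1b flox/+) had 3 libraries and the littermate control group (hGFAPCre+, Arid1b+/+) had 2, so the Cre transgene was present in every library. The human GFAP promoter drives this Cre in neural progenitors and the cells they give rise to, and Arid1b codes for part of the BAF chromatin remodeller. The cells of 1 mouse filled 2 wells, and the labels do not tie each library to its own mouse, so a p-value here reflects only how far these libraries differ, and that may in part be technical.

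These glycoproteins are secreted and stay around the cell, where they link collagens, proteoglycans and growth factors to receptors on the cell surface. Thrombospondins bind calcium and act through Cd36, Cd47, integrins and the calcium channel subunit Cacna2d1. In brain, Thbs1 and Thbs2 are known as astrocyte products that promote synapse formation. Fibulins are adaptors of elastic fibres and basement membranes, and fibulin-2 binds versican and fibronectin. Tenascin-C and versican are typical of the immature brain, tenascin-C in radial glia and the stem cell niche, and versican as a chondroitin sulfate proteoglycan of oligodendrocyte precursors and migrating cells. Fibronectin is the classical integrin ligand of mesenchymal and vascular matrix.

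The libraries held 19833803 to 25494722 reads assigned to genes. Control replicate 1 stood apart from the other 4 libraries. Its correlation across genes was 0.9521 with control replicate 2 and 0.9267 to 0.9304 with the heterozygous libraries, which correlated at 0.9884 to 0.9893 with each other. Control replicate 2 correlated at 0.9708 to 0.9744 with the heterozygous libraries, and so was closer to them than to control replicate 1. Heterozygous replicate 2 was the only library with no read of 4 Y-linked genes. It had 36851 reads of Xist, so it differed in sex from the rest. Heterozygous replicate 3 had reads of all 4 Y-linked genes and 301 of Xist. The controls had 6 and 16 Xist reads and heterozygous replicate 1 had 1. The source of the 301 reads was not tested. Arid1b itself was at 1510 and 1730 normalized counts in the controls and at 1102, 1145 and 1003 in the heterozygous libraries. Its log2 fold change was -0.58 with an SE of 0.14 and missed the threshold (limma adjusted p = 0.0701). Loss of the floxed exon cannot be seen in counts per gene. The neural stem cell markers of the labelled cell type were present, with Sox2 at 5611 to 9615 and Nes at 6454 to 25196 normalized counts.

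A normalized count here is the number of reads of a gene divided by a size factor of its library. All 10 genes had a mean of at least 10 normalized counts and were among the 16411 genes tested by limma on log2(normalized count + 1). In that fit 1 of the 10 was called higher in the heterozygous libraries at an adjusted p under 0.05 (Thbs2), against 1.9% of all 16411 genes tested, and 1 was called lower (Fbln2), against 0.944%. The other 8 did not pass, and neither Thbs2 nor Fbln2 passed once any 1 heterozygous library was left out, when limma called 0 or 1 gene in the whole table (2347 to 2670 at an unadjusted p under 0.05, and 4286 with all libraries). Since this comparison chose the set, nothing is read from these counts. The 2 groups did not overlap for 3 genes higher in the heterozygous libraries (Thbs1, Thbs2 and Tnc; 23.4% of all genes) and for 4 lower (Fbln1, Fbln2, Fbln5 and Fn1; 23.3% of all genes). They overlapped for Thbs3, Thbs4 and Vcan. The median log2 fold change of the 10 genes was -0.15, beside 0.01 over all genes tested. In bulk RNA fewer cells of a type and less RNA per cell cannot be told apart, for these and all other genes.

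Promoter sequences are shown for the pair that named the set and for Tnc, the most abundant of the 10 in the heterozygous libraries, where it was higher than in the controls as Thbs2 was. RefSeq windows of 250 bases before to 50 after a transcription start (GRCm38.p6, the assembly that mm10 denotes) were found for 8 of the 10 genes, and not for Thbs1 and Fn1. Capitals mark matches of TATAAA, and likewise of GGGCGG, on either strand. The windows are chr17:14694213-14694512 (- strand) for Thbs2, chr6:91212514-91212813 (+ strand) for Fbln2 and, for the first of 2 listed starts of Tnc, chr4:64046966-64047265 (- strand), each read 5′ to 3′ along the gene.
Thbs2: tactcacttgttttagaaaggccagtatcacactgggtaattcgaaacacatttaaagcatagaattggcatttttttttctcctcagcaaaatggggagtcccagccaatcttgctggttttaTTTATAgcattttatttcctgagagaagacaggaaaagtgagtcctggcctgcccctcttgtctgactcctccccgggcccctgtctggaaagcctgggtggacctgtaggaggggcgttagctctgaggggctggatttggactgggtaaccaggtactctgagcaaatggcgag
Fbln2: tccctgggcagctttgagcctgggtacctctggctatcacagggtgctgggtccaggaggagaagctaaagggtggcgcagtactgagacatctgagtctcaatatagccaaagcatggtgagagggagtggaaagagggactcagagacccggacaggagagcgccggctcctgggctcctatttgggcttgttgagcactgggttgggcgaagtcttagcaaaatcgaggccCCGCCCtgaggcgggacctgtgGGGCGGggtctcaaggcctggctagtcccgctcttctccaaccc
Tnc: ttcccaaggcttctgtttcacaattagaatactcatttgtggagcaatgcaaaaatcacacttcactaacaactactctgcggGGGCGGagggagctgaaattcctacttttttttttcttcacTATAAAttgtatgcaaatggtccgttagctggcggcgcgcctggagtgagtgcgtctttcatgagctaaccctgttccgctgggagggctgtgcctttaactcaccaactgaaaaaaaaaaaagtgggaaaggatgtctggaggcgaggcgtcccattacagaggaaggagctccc

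The windows of the pair differ in base composition. That of Fbln2 begins at 91212514, inside the gene as GENCODE M21 places it (from 91212455). The RefSeq start used for Fbln2 thus lies downstream of the GENCODE start of the gene. The Thbs2 window has 48.3% G or C and 4 CpG pairs, the Fbln2 window 60.3% and 10, and the Tnc window 47.3% and 10, beside a median of 52.7% G or C over all 32851 windows. Of the 8 genes, 2 held TATAAA (Thbs2 and Tnc, each with a match that begins 126 bases before the start), a motif present in 13.6% of all windows. GGGCGG, the core of the GC box, was in windows of 7 of the 8 (all but Thbs2) and in 35.7% of all windows. The AP-1 motif TGANTCA was in none of the 8 genes' windows and in 7.81% of all, and ACGTG, the core of the hypoxia response element, was in those of Fbln1 alone, in 19.6% of all. Motifs were searched on both strands. The 8 genes had 11 windows, and a gene counted when any of its windows held the motif. Counts of genes and percentages of windows are therefore not on the same scale. No matches overlapped in the windows shown, while in the Fbln1 windows ACGTG overlapped its own reverse complement. A match is a string of letters and not a measured binding site.

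Thbs2 (ENSMUSG00000023885, chromosome 17 from 14665500 to 14694235, - strand, mm10) was at 115 and 448 normalized counts in the controls and at 1739, 1677 and 1604 in the heterozygous libraries. The 3 heterozygous values lay within 1.08-fold of each other, whereas the controls differed 3.89-fold, and even the higher control was far below every heterozygous library. The group mean was 282 ± 235 (SD, n = 2) in the controls, against 1674 ± 67.1 (SD, n = 3) in the heterozygous libraries, which is 5.94-fold higher. On the log2 scale the difference was 2.87 (SE 0.51). Leaving out control replicate 1 gave 1.90 and leaving out control replicate 2 gave 3.85, and the call of Thbs2 was lost when edgeR was run on the recovered reads.

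Thbs1, which is also an activator of latent TGF-beta, was far less abundant, at 68.7 and 56.0 normalized counts in the controls, against 113, 101 and 101 in the heterozygous libraries. The groups did not overlap, and the log2 difference was 0.75 (SE 0.24), which did not pass. The values rest on 59 to 113 reads per library. Thbs3 and Thbs4 assemble as pentamers, in contrast to the trimers of Thbs1 and Thbs2. Thbs3 was nearly level, at 701 and 600 normalized counts in the controls, against 598, 618 and 618 in the heterozygous libraries (log2 difference -0.08, SE 0.14). Thbs4 had 7 to 50 reads per library and was at 8.15 and 45.1 normalized counts in the controls, against 19.2, 6.23 and 9.74 in the heterozygous libraries. Its log2 difference of -0.82 (SE 0.79) took the opposite sign, 0.34, without control replicate 2, and was -1.99 without control replicate 1.

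The makeup of the thrombospondin family differed accordingly. Per exon length, Thbs2 made up 9.38% and 30.2% of the summed level of the 4 thrombospondins in the controls, against 62.6%, 62.0% and 60.8% in the heterozygous libraries. In both controls Thbs3 stood above Thbs2 on this scale, and in every heterozygous library Thbs2 stood above Thbs3. The summed normalized counts of the family were 893 and 1149 in the controls, against 2333 to 2469 in the heterozygous libraries.

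**Figure D1:**
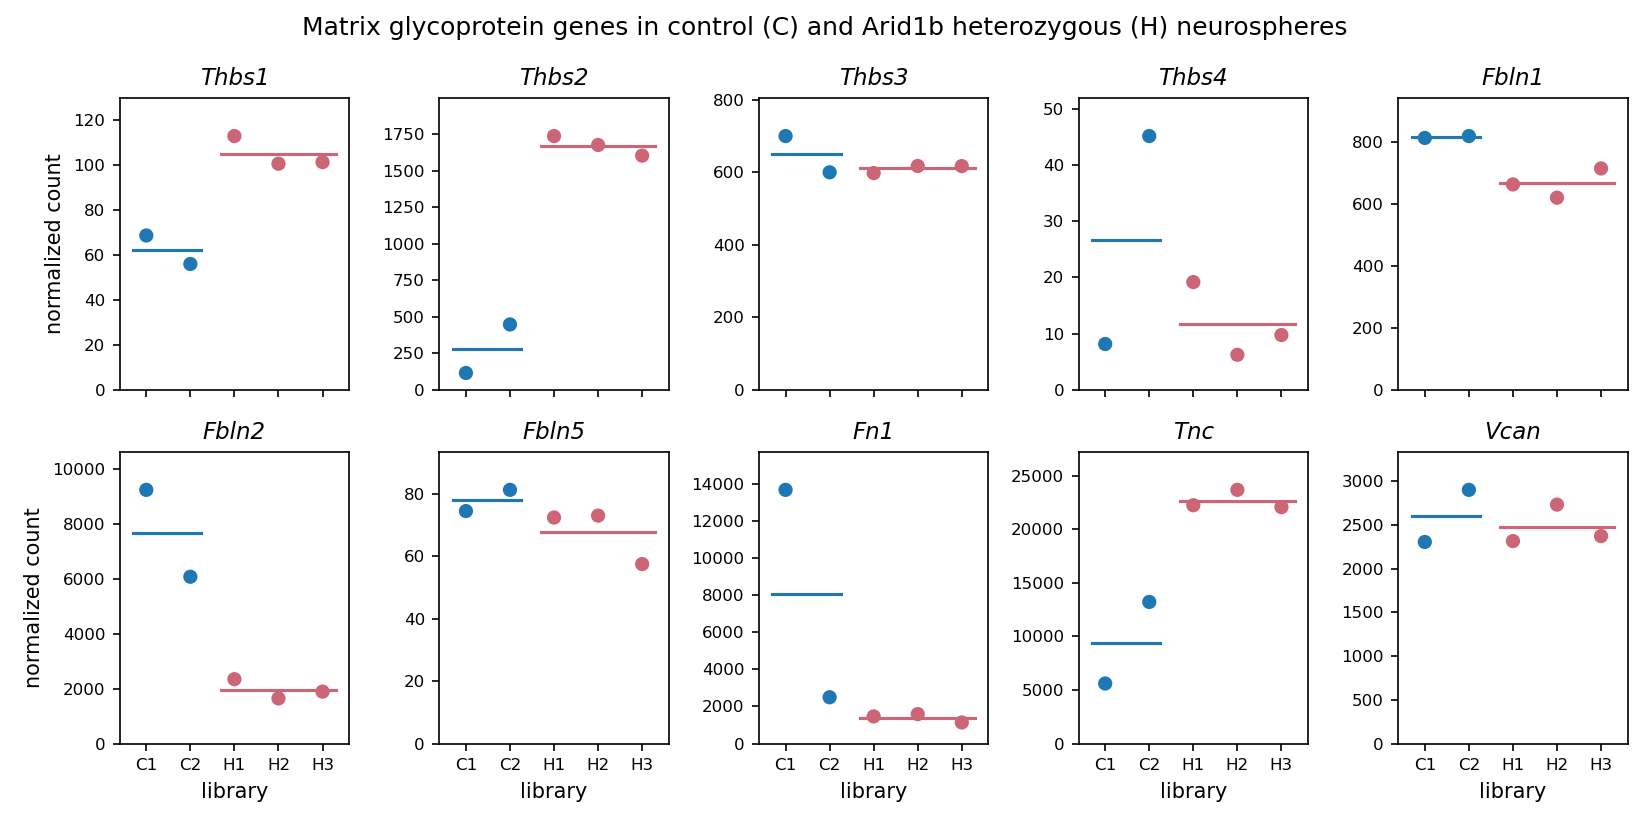
Normalized count (vertical axes, starting at 0, with a separate scale for each gene) of the 10 genes in control libraries C1 and C2 and heterozygous libraries H1 to H3. Points are libraries and lines are group means; all heterozygous libraries lie above both controls for Thbs2 and Tnc and below them for Fbln2 and Fn1, and control library C1 lies far from C2 for Fn1.

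Fbln2 (ENSMUSG00000064080, chromosome 6 from 91212455 to 91272540, + strand) was the strongest fibulin in every library. It was at 9235 and 6073 normalized counts in the controls and at 2344, 1644 and 1891 in the heterozygous libraries. The lowest control was above the highest heterozygous library by more than the range within either group. The group mean was 7654 ± 2236 (SD, n = 2) in the controls, against 1960 ± 355 (SD, n = 3) in the heterozygous libraries, which is 3.91-fold lower, and the log2 difference was -1.95 (SE 0.23). Of the 4 among these 10 genes with a log2 difference above 1 in size, Fbln2 depended least on which control was used, with -1.65 without control replicate 1 and -2.25 without control replicate 2.

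Fbln1, an adaptor that binds fibronectin, was at 815 and 821 normalized counts in the controls, against 664, 621 and 716 in the heterozygous libraries. The controls were nearly identical and the groups did not overlap, but the log2 difference was only -0.29 (SE 0.14) and did not pass. Fbln5, which is needed to assemble elastic fibres, was near the bottom of the set at 74.5 and 81.3 in the controls, against 72.4, 73.0 and 57.5 in the heterozygous libraries (log2 difference -0.21, SE 0.25). Both genes thus lay slightly below the controls, while Fbln2 lay far below them. The share of Fbln2 in the summed level of the 3 fibulins per exon length was 88.0% and 82.7% in the controls, against 69.4%, 62.8% and 63.3% in the heterozygous libraries.

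Tnc (ENSMUSG00000028364, chromosome 4 from 63959785 to 64047015, - strand) was at 5607 and 13217 normalized counts in the controls and at 22240, 23677 and 22066 in the heterozygous libraries. The heterozygous values agreed within 1.07-fold and the controls differed 2.36-fold. The group means were 9412 ± 5381 (SD, n = 2) and 22661 ± 884 (SD, n = 3), and the log2 difference of 1.40 (SE 0.34) did not pass. Leaving out control replicate 1 gave 0.78 and leaving out control replicate 2 gave 2.01. An antisense gene, 8030451A03Rik, shares 176 exon bases with Tnc and was at 41.9 and 112 normalized counts in the controls, against 168 to 222 in the heterozygous libraries. Whether reads were counted by strand is not given in the sources used here, so reads of the 2 genes cannot be told apart in the shared stretch.

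Fn1 (ENSMUSG00000026193, chromosome 1 from 71585520 to 71653200, - strand) was at 13668 normalized counts in control replicate 1 and 2496 in control replicate 2. The heterozygous libraries were at 1464, 1587 and 1139. The gap between the controls, 5.48-fold, was wider than that between control replicate 2 and any heterozygous library. The log2 difference between groups was -2.08 (SE 0.65) and did not pass. Leaving out control replicate 1 gave -0.85 and leaving out control replicate 2 gave -3.30. Vcan was nearly level, at 2306 and 2903 in the controls, against 2317, 2734 and 2374 in the heterozygous libraries (log2 difference -0.07, SE 0.15). Neither fibronectin nor versican isoforms can be read from gene-level counts. Besides the antisense partner of Tnc, Mtx1 shares 318 exon bases with Thbs3 on the opposite strand and was at a mean of 525 normalized counts. Apol7d shares 292 with Fn1 at a mean of 4.01, and a predicted gene with no reads shares 208 with Thbs1.

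**Figure D2:**
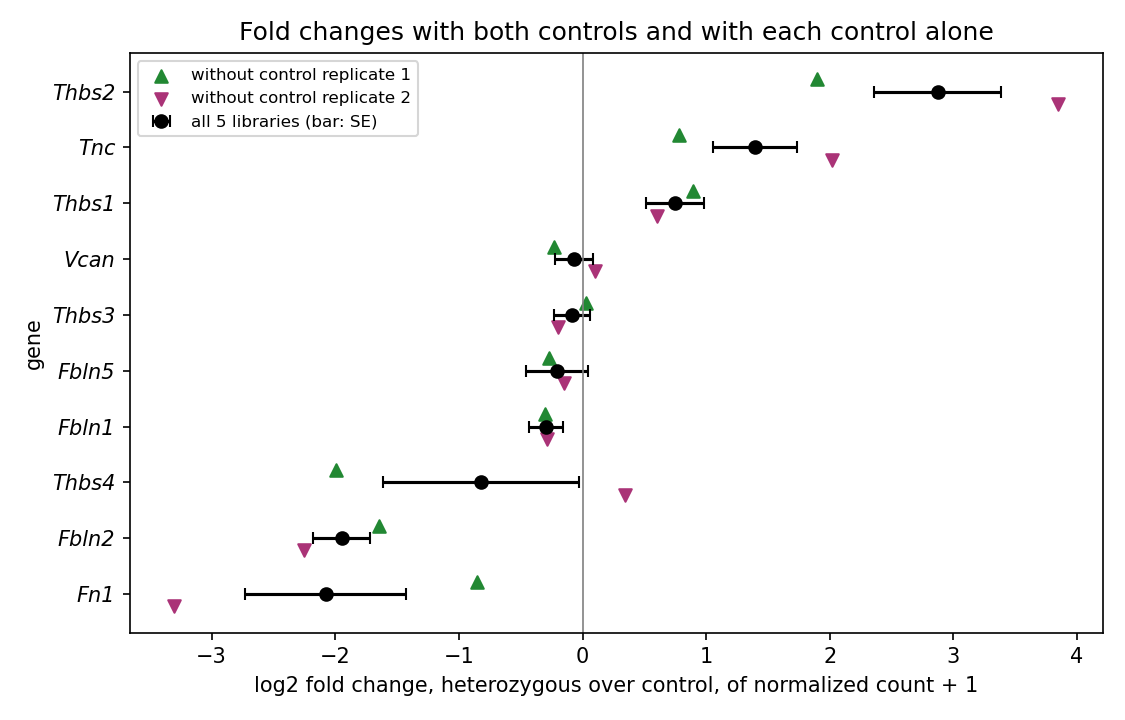
Log2 fold change of normalized count + 1, heterozygous over control (horizontal axis), for each gene (vertical axis). Black points with SE bars use all 5 libraries, and triangles leave out control replicate 1 or 2; the values of Thbs2, Tnc, Thbs4 and Fn1 move by 0.62 to 1.23 with the choice of control, and Fbln2 by 0.30.

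For 8 of the 10 genes, all but Fbln1 and Fbln5, leaving out a control moved the log2 difference more than leaving out any heterozygous library. A control is 1 of 2 libraries of its group and a heterozygous library 1 of 3, so for any gene a control weighs more. Leaving out any 1 heterozygous library moved the log2 differences of 9 genes by at most 0.14, and that of Thbs4 by 0.40. The absolute log2 difference between the 2 controls was 2.45 for Fn1, 2.33 for Thbs4, 1.95 for Thbs2 and 1.24 for Tnc, where the median over all genes tested was 0.446 and the value below which 95% of genes fell was 1.80. For Thbs2 and Tnc, control replicate 2 lay between control replicate 1 and the heterozygous libraries, and for Fbln2 and Fn1 likewise from above. For Fbln1, Fbln5, Thbs1, Thbs3 and Vcan, the controls differed by 0.01 to 0.33 on the log2 scale.

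Levels of different genes were compared per 1000 bases of exon, with exon lengths from GENCODE M21, since a long transcript collects more reads. The length counts each annotated exon base of a gene once, over all its transcripts. It is not the length of the transcripts present in these cells, so the order of genes close in level may depend on it. On this scale the 10 genes spanned a wide range, from Thbs4 (1.90 to 13.7 normalized counts per 1000 bases over the 5 libraries) to Tnc (721 to 3046). In the heterozygous libraries the order from the top was Tnc at 2916 ± 114, Fbln2 at 308 ± 55.8, Thbs2 at 239 ± 9.59, Vcan at 171 ± 15.7, Fbln1 at 153 ± 10.8, Thbs3 at 127 ± 2.33, Fn1 at 120 ± 19.8, Thbs1 at 17.3 ± 1.13, Fbln5 at 9.79 ± 1.27 and Thbs4 at 3.56 ± 2.03 (mean and SD, n = 3). The ranges of the neighbours Vcan and Fbln1, and of Thbs3 and Fn1, overlapped there, and those of the other neighbours in the order did not. In the controls Tnc (721 and 1701), Fbln2 (1450 and 953) and Fn1 (1170 and 214) overlapped at the top, and Thbs2 (16.4 and 64.0) was seventh, below Thbs3 (145 and 124).

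**Figure D3:**
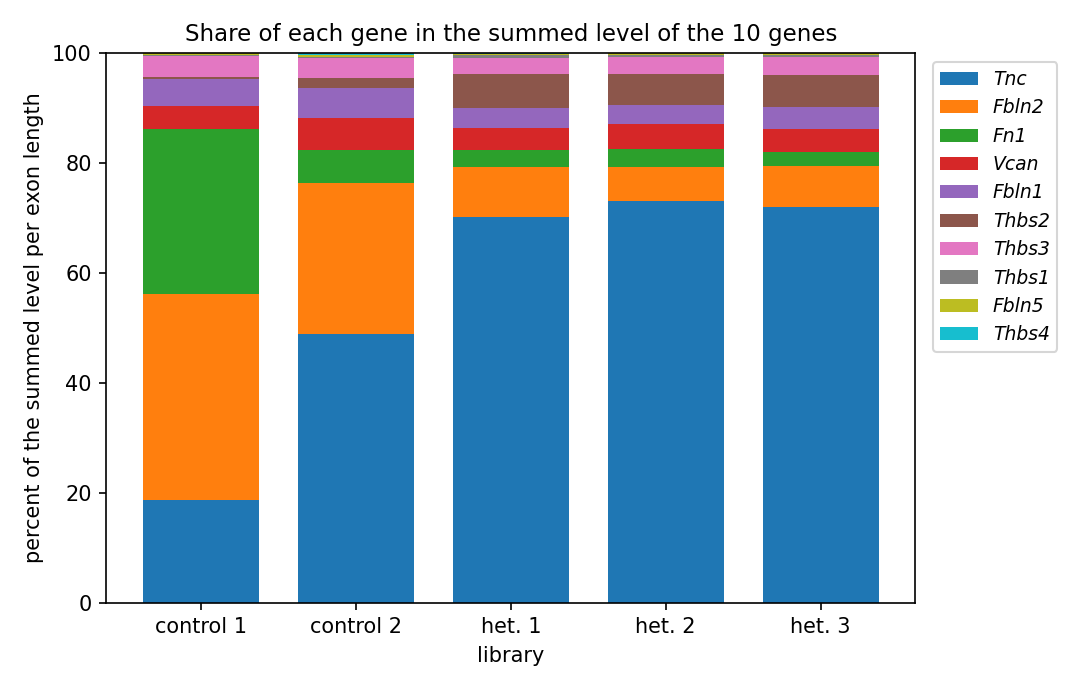
Share (percent, vertical axis) of each gene in the summed level per exon length of the 10 genes, for each library (horizontal axis). Tnc makes up 18.6% and 48.9% in the controls, against 70.2% to 73.1% in the heterozygous libraries, with smaller shares of Fbln2 and Fn1.

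The summed level of the 10 genes per exon length was 3873 and 3479 in the controls, against 3947 to 4168 in the heterozygous libraries. The groups did not overlap but lay close together. The makeup of the sum differed more. For Tnc and Fn1 the shares differed more between the 2 controls than between control replicate 2 and any heterozygous library. Tnc made up 18.6% and 48.9% of the summed level in the controls, against 70.2%, 73.1% and 71.9% in the heterozygous libraries. Fbln2 made up 37.4% and 27.4% against 9.03%, 6.19% and 7.52%. Fn1 held 30.2% in control replicate 1, 6.14% in control replicate 2 and 2.47% to 3.26% in the heterozygous libraries. The share of Thbs2 was 0.425% and 1.84% against 5.75% to 6.09%. Vcan held 4.12% and 5.77% against 3.93% to 4.54%, and the groups overlapped. Fbln1 held 4.82% and 5.40% against 3.41% to 4.15%, with no overlap.

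The authors' deposited table gives a log2 fold change of 2.07 (SE 0.36) for Thbs2, -1.82 (SE 0.24) for Fbln2, 1.12 (SE 0.29) for Tnc and -1.40 (SE 0.46) for Fn1. These 4 had an adjusted p under 0.05 in the authors' deposited table, 2 of them higher (6.32% of the genes with an adjusted p there) and 2 lower (5.99%). The table rests on the same libraries and on the same comparison, so it adds no separate evidence.

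Around this set, 121 other matrix genes in 6 lists were read from the same fit. Of the 114 tested, 4 rose and 2 fell, beside 1.9% and 0.944% of all genes, and 40 had an unadjusted p under 0.05, beside 26.1% of all 16411 genes. Over all genes edgeR called 1.46% higher and 1.03% lower, and DESeq2 called 7.3% higher and 7.15% lower, against which their counts per list are to be read. These genes were not chosen by their values, though the lists were drawn up with earlier results of the series known. When any 1 heterozygous library was left out none of the 6 calls held in limma, while their log2 fold changes moved by less than 1.5-fold with either control left out. All 6 were also called by edgeR and by DESeq2.

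Of 17 matricellular and thrombospondin-repeat genes tested, 12 had a positive log2 fold change, with a median of 0.84 beside 0.01 over all genes, and 1 rose while 16 did not pass. In limma 8 of the 17 had an unadjusted p under 0.05, beside 26.1% of all genes. edgeR called 1 higher and 1 lower, and DESeq2 called 4 higher and 1 lower. The lower one in both was Smoc1, a calcium-binding matricellular protein named here after its values were seen (-1.22 in limma). The one that rose was Spp1 (osteopontin, a secreted integrin and Cd44 ligand), at 185 and 209 normalized counts in the controls, against 1051, 537 and 642 in the heterozygous libraries, which gave 1.85 on the log2 scale (SE 0.30, limma adjusted p = 0.0410). Spock3, a proteoglycan of the testican family, had the largest value of those that did not pass, 2.45 (SE 0.48, limma adjusted p = 0.0521), and gave 1.62 or 3.27 without control replicate 1 or 2. Sparcl1, a glial matricellular protein and the most abundant of the list, was at -0.34 (SE 0.34, limma adjusted p = 0.550), at 0.25 without control replicate 1 and at -0.93 when control replicate 2 was left out. The median of the list was 0.92 with control replicate 1 left out and 0.48 with control replicate 2 left out.

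Among the fibulin relatives and elastic fibre genes, 20 were tested and none passed, with a median log2 fold change of -0.07 (about -0.19 with either control left out) and 7 genes at an unadjusted p under 0.05 in limma, where 26.1% of all genes had one. edgeR called 2 of them lower, and DESeq2 called 1 higher and 4 lower. Loxl2, a lysyl oxidase that cross-links collagen and elastin, had the largest value, from 723 and 200 normalized counts in the controls to 62.8, 51.6 and 52.6 in the heterozygous libraries (log2 fold change -2.76, SE 0.52, limma adjusted p = 0.0502). Its value was -1.83 with control replicate 1 left out and -3.68 with control replicate 2 left out. Ltbp3, a binding protein of latent TGF-beta and the most abundant of the list, was at -0.998 (SE 0.33, limma adjusted p = 0.128), and at -0.40 without control replicate 1 and -1.59 without control replicate 2.

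None of the 14 tested tenascins, lecticans, link proteins and hyaluronan genes passed in limma, where 7 had an unadjusted p under 0.05 beside 26.1% of all genes, and none in edgeR, while DESeq2 called 1 higher and 5 lower. Of these 14, 10 had a negative log2 fold change. The median was -0.39, and -0.48 or -0.53 without control replicate 1 or 2. The 2 members from these families were at 1.40 (Tnc) and -0.07 (Vcan). Since this comparison chose the set, nothing is read from their place beside that median. Hapln1, a link protein that fixes lecticans to hyaluronan, was at 12.8 and 51.5 normalized counts in the controls, against 194, 161 and 132 in the heterozygous libraries (log2 fold change 2.59, SE 0.56, limma adjusted p = 0.0611). Leaving out control replicate 1 gave 1.62 and leaving out control replicate 2 gave 3.55. Ptprz1, a receptor phosphatase that binds tenascins and the most abundant of the list, was at -0.28 (SE 0.24, limma adjusted p = 0.480), at -0.57 without control replicate 1 and at 0.01 without control replicate 2.

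**Figure D4:**
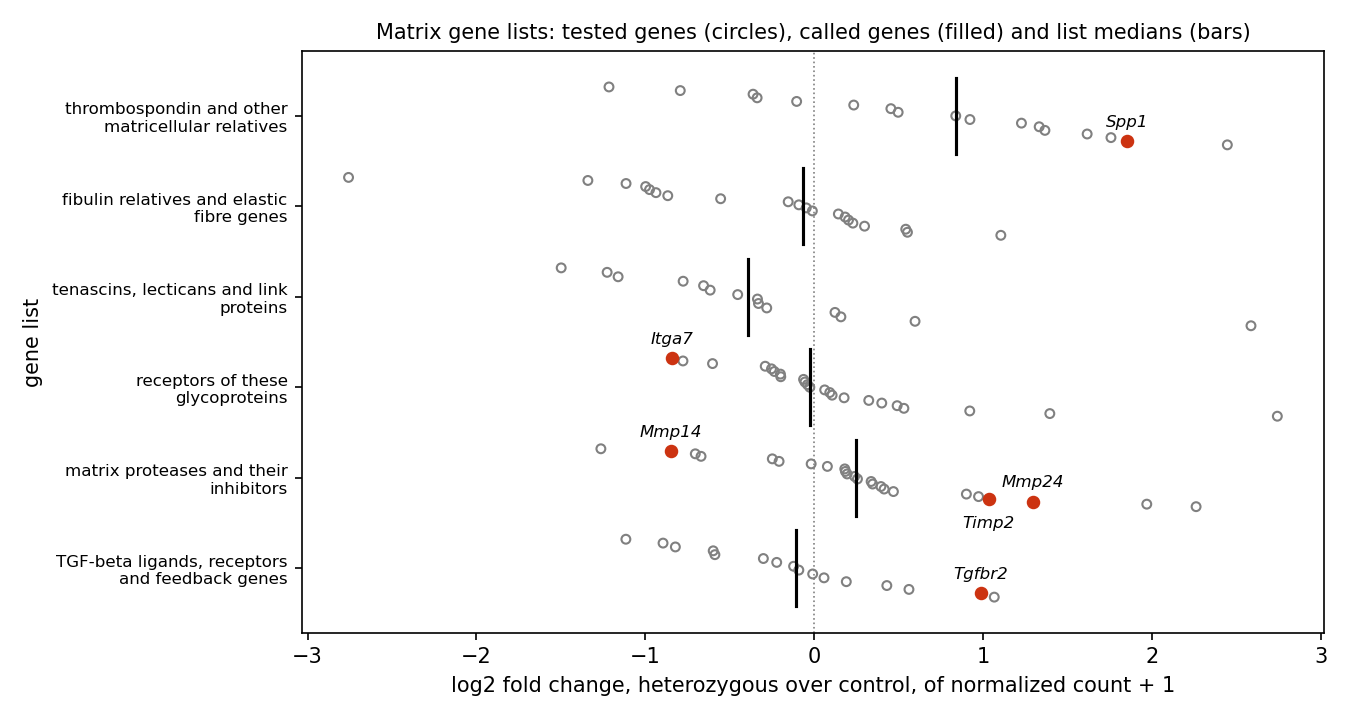
Log2 fold change of normalized count + 1, heterozygous over control (horizontal axis), of the tested genes of 6 matrix gene lists (vertical axis). Open circles did not pass, filled circles passed at a limma adjusted p under 0.05, and bars are list medians; the 6 filled genes are Spp1, Mmp24, Timp2 and Tgfbr2, which rose, and Itga7 and Mmp14, which fell.

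Of 23 receptors tested, 1 fell and 22 did not pass. The median was -0.03 (0.05 when control replicate 1 was left out, and -0.02 when control replicate 2 was). In limma 7 of the 23 had an unadjusted p under 0.05, beside 26.1% of all genes. Both edgeR and DESeq2 called 0 higher and 1 lower. The one that fell was Itga7, an integrin alpha chain best known as a laminin receptor, from 1757 and 1967 normalized counts in the controls to 915, 1155 and 1056 in the heterozygous libraries (log2 fold change -0.84, SE 0.15, limma adjusted p = 0.0469). Cd36, a thrombospondin receptor, ranged from 1.16 to 28.9 in the controls and from 35.1 to 80.9 in the heterozygous libraries (2.74, SE 1.06, limma adjusted p = 0.170). The value of Cd36 was 0.85 when control replicate 1 was left out and 4.64 when control replicate 2 was. The endocytic receptor Lrp1, which takes up thrombospondins and was the most abundant of the list, was at -0.60 (SE 0.25, limma adjusted p = 0.192), and at -0.24 or -0.96 without control replicate 1 or 2.

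Proteases and inhibitors held 3 of the 6 calls in these lists. Of 24 tested, 2 rose, 1 fell and 21 did not pass (median 0.25, and 0.10 without control replicate 1). In limma 7 of the 24 had an unadjusted p under 0.05, beside 26.1% of all genes. edgeR called 2 higher and 1 lower, and DESeq2 called 4 higher and 3 lower. Timp2, an inhibitor of metalloproteinases, was at 2682 and 2551 normalized counts in the controls, against 5597, 5236 and 5225 in the heterozygous libraries, with 2616 ± 93.0 (SD, n = 2) against 5353 ± 212 (SD, n = 3). Its log2 fold change, 1.03 with an SE of 0.12 (limma adjusted p = 0.0258), was 1.07 with control replicate 1 left out and 0.996 with control replicate 2 left out. Mmp14, the membrane-bound protease that with Timp2 activates pro-Mmp2, fell from 6162 and 5019 to 2871, 3107 and 3295 (-0.85, SE 0.14, limma adjusted p = 0.0437). Mmp24, another membrane-bound metalloproteinase, rose from 228 and 277 to 689, 640 and 537 (1.30, SE 0.19, limma adjusted p = 0.0363). The stromelysin Mmp3 had the largest value of those that did not pass, 2.26 (SE 1.92, limma adjusted p = 0.478), with 72.2 and 0 in the controls, against 210, 14.2 and 20.5 in the heterozygous libraries. Without control replicate 1 its value was 5.36, and without control replicate 2 it was -0.83. Serpine2, a secreted protease inhibitor and the most abundant of the list, was at 0.20 (SE 0.15, limma adjusted p = 0.436).

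Of 16 genes of TGF-beta signalling, 1 rose and 15 did not pass. The median was -0.11, but 0.11 when control replicate 1 was left out and -0.55 when control replicate 2 was. In limma 4 of the 16 had an unadjusted p under 0.05, beside 26.1% of all genes. edgeR called 1 higher and 0 lower, and DESeq2 called 1 higher and 2 lower. The receptor Tgfbr2 was at 306 and 308 normalized counts in the controls, against 623, 611 and 592 in the heterozygous libraries, which gave 0.98 on the log2 scale (SE 0.14, limma adjusted p = 0.0363), and 0.98 and 0.99 with either control left out. The ligand Tgfb1 was at 156 and 28.9 in the controls, against 24.5 to 40.1 in the heterozygous libraries (-1.11, SE 0.69, limma adjusted p = 0.339), and its value was 0.08 when control replicate 1 was left out and -2.31 when control replicate 2 was. Ski, a repressor of the pathway and the most abundant of the list, was at -0.01 (SE 0.12, limma adjusted p = 0.967).

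Cells of other kinds can also supply matrix genes. Summed normalized counts of 6 fibroblast and meninges markers were 96.6 to 456 in the controls, against 142 to 359 in the heterozygous libraries, with Col1a1 at 28.3 to 108 over all 5. For 5 pericyte and smooth muscle markers the sums were 304 to 1208 and 1304 to 2360, nearly all from Rgs5. They were 126 to 298 and 132 to 225 for 6 endothelial markers, 116 to 144 and 144 to 216 for 6 microglia and macrophage markers, and 87.3 to 356 and 138 to 416 for 4 choroid plexus markers. Of these 27 markers 19 were tested, and none was called by limma or edgeR (3 at an unadjusted p under 0.05 in limma, beside 26.1% of all genes), while DESeq2 called 1 higher. None was at 0 in all 5 libraries. Of the 5 libraries, control replicate 1 had the highest fibroblast and endothelial sums, the lowest microglia and choroid plexus sums, and a pericyte sum below every heterozygous library.

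Some neural markers differed between the genotypes as well. Of 6 neuron markers 3 rose (Snap25, Tubb3 and Syt1), beside 1.9% of all genes. Their sums were 16631 to 22632 in the controls, against 24499 to 36045 in the heterozygous libraries for all 6. Of 6 astrocyte markers 1 fell (Aqp4), beside 0.944% of all genes, with sums of 102978 to 139166 against 76218 to 90296. These markers did not move together. Log2 fold changes were -0.43 for Gfap, -0.4 for Slc1a3 and -0.92 for Slc1a2, but 0.003 for Aldh1l1 and 0.34 for S100b. Slc1a3, the most abundant, was at 64572 and 34637 in the controls, against 33515 to 37429 in the heterozygous libraries. With any 1 heterozygous library left out, limma called 0 genes higher and 0 or 1 lower in the whole table. Of 7 oligodendrocyte lineage markers 1 fell (Sox10), beside 0.944% of all genes, with sums of 51946 to 83242 against 57113 to 73102. Of 7 stem cell markers none passed in limma (5 at an unadjusted p under 0.05, beside 26.1% of all genes) or edgeR. DESeq2 called 5 of them (2 higher, 3 lower), beside 7.3% and 7.15% of all genes. Stem cell sums were 86224 to 132437 against 152420 to 186817, but the 7 did not move together. The most abundant, Vim, Fabp7 and Nes, had log2 fold changes of 0.75, 0.75 and 1.21. Those of Sox2, Pax6, Hes1 and Prom1 were -0.63, -1.08, -0.47 and -1.11. The part of any of these markers in the differences of Thbs2, Fbln2, Tnc or Fn1 was not tested.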

How the data were processed

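STAR, DESeq2 and the build mm10 are named in the submitters' processing notes. Of the versions, annotation, counting tool and strand setting, each is not given in the sources used here. Deposited library values are a normalized signal, read counts that the authors divided by 1 size factor per library: divided by what 1 read was worth, 100% came out whole (tolerance 0.001), which recovered the reads. The authors' log2 fold change, p-value and adjusted p-value are deposited beside them; their standard error and Wald statistic were treated as a score deposited by the authors.

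Values of the 5 libraries (3 heterozygous, 2 control) were tested as log2(normalized count + 1) with limma 3.58.1 (R 4.3.3) with a trend on mean level, two-sided, with Benjamini-Hochberg adjustment over 16411 genes (mean of 10 or more), and a threshold of 0.05. Fold changes on this scale understate changes of low genes. Alternatives were pseudocounts of 0.5 and 5, no filter, a mean of at least 50, quantile normalization, edgeR 4.0.16 and DESeq2 1.42.0 on the recovered reads, a replicate block, and each library left out. The 10 genes, the 6 matrix lists and the 9 marker lists were chosen with earlier results of these data known. Named genes are the 10, Arid1b, and from each matrix list those called, the most abundant and the largest change not called; markers and genes sharing exons were named besides. Positions and exon lengths are from GENCODE M21 on mm10, where all 10 genes matched by ID.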

Additional observations from a re-analysis of the deposited data

How the results depend on the processing

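Over all genes, 311 were called higher and 155 lower, 2 of the 10 genes (Thbs2 and Fbln2) and 6 genes of the matrix lists among them. With DESeq2 the numbers were 1174, 1151, 4 (with Tnc and Fn1) and 27; with edgeR 1 of the 10 (Fbln2); and with no filter 12 list genes. Pseudocounts, the mean of at least 50 and quantile normalization kept both Thbs2 and Fbln2. With 1 library left out, calls ranged from 0 to 4477 higher, 0 to 3868 lower, 0 to 5 of the 10 genes and 0 to 65 list genes. The zeros came from leaving out a heterozygous library, where 2347 to 2670 genes kept an unadjusted p under 0.05 in limma. Without a control, the lone control is assumed to vary like the heterozygous libraries, and control replicates 1 and 2 left out gave 5 and 4 of the 10 genes. With the replicate block, limma called 0 genes higher and 1 lower (2450 at an unadjusted p under 0.05), 0 of the 10 and 0 of the lists. Heterozygous replicate 3 has no partner and drops out of that fit. Same-numbered deviations from the group means correlated at 0.03 and -0.04. With only 2 controls, their deviations mirror each other, so these values cannot tell whether same-numbered libraries were paired.

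Signs turned only for values that had not passed. With each library left out in turn, log2 fold changes ranged from -0.196 to 0.026 for Thbs3, -1.99 to 0.345 for Thbs4, -0.234 to 0.098 for Vcan, -0.929 to 0.252 for Sparcl1, -0.572 to 0.010 for Ptprz1, -0.835 to 5.358 for Mmp3, -2.311 to 0.081 for Tgfb1 and -0.089 to 0.071 for Ski, each extreme without 1 of the controls. Ski also turned without heterozygous replicate 1 (0.034). Of the 375 log2 fold changes recomputed for named genes, 299 kept their direction and side of the threshold. The cause was not tested. Thbs4, with 7 to 50 reads per library, had the fewest reads of the 10 genes.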
